A study of Mus musculus with 20 samples.

Results

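The RAS GTPase-activating proteins were followed through mouse nerve tumors by the RNA of 9 genes: Nf1, Rasa1, Rasa2, Rasa3, Rasa4, Rasal1, Rasal2, Rasal3 and Dab2ip. They were taken by name from a count table of 24062 genes, and each of the 9 names matched 1 row. All 9 were among the 16589 genes that passed the expression filter. The table holds 20 bulk RNA-seq libraries of C57BL/6J mice. Of these, 4 are GEM-PNST, peripheral nerve sheath tumors of a genetically engineered mouse, 4 are paraspinal tumors (2 of subgroup 2 and 2 of subgroup 1) and 12 are neurofibromas. GEM-PNST and paraspinal tumors carried the genotype Ink4a/Arf+/-; Nf1fl/fl; DhhCre, and neurofibromas carried Nf1fl/fl; DhhCre. Every group therefore has both the floxed Nf1 alleles and the Dhh-driven Cre, which acts in the Schwann cell lineage, and none is without them. Per the labels no drug was given, and the ages are not stated. The labels name the subgroups sub-clusters without saying what was clustered, so if these counts defined them, a test between them on the same counts is not independent.

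RAS proteins switch signaling on when bound to GTP and off when they split it to GDP. GTPase-activating proteins speed up that splitting, and exchange factors such as SOS proteins reload RAS with GTP. Neurofibromin, the protein of Nf1, is such an activator, and its loss in Schwann cells underlies neurofibromas in people with neurofibromatosis. The other genes code for proteins with a related catalytic domain, with different partners: RASA1 binds activated receptors, RASA2 and RASA3 sit at membrane lipids, RASA4 and RASAL1 respond to calcium, and RASAL2, RASAL3 and DAB2IP form a family of related scaffold-like activators.

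The libraries of the groups differ in more than stage, a word used here for the tumor type, with no order in time tested. Total counts ran from 16282605 to 22218382 in GEM-PNST, 18474071 to 24314222 in paraspinal and 9900759 to 17594164 in neurofibroma libraries. Run numbers in the names of the alignment files place all GEM-PNST and paraspinal libraries in 1 run. The neurofibroma libraries lie in another 2, with 6 libraries in each. What kind of run these numbers stand for was not established. In comparisons with neurofibroma, run, Ink4a/Arf genotype and stage therefore cannot be told apart, and no fit can hold run as a term. Summed over 7 Schwann cell markers, GEM-PNST libraries had 6.91 to 933 CPM, against 6174 to 13541 CPM in paraspinal and 2081 to 10707 CPM in neurofibroma libraries, so the markers of the lineage that the Cre targets were low in GEM-PNST. Summed over 9 sensory neuron markers, GEM-PNST libraries had 3.31 to 148 CPM with Scn10a at 0, against 2966 to 4467 CPM in paraspinal and 20.5 to 9547 CPM in neurofibroma libraries. In bulk tissue, fewer cells of a type and less RNA per cell cannot be told apart, and the part that the mix of cells has in the values below was not tested. Nothing in the labels ties a library to an animal of its own, so p-values measure the spread between samples. Neurofibroma libraries 8 and 9 have codes that share a number, and so do GEM-PNST library 2 and paraspinal subgroup 1 library 1. The codes of the subgroup 2 libraries differ by 1 letter, and those of GEM-PNST libraries 1 and 4 by 1 digit. Whether libraries with like codes share an animal is not stated. Leaving out neurofibroma library 8 or 9, or neurofibroma library 4, whose neuronal markers were lowest, changed no call of these genes.

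In comparisons with neurofibroma, fold changes also moved with the base composition of genes, and the source of this trend was not tested. The median log2 fold change of GEM-PNST over neurofibroma was -1.21 in the class of genes with the lowest exonic GC content, of 5 classes of about equal size, and 1.34 in the class with the highest. For paraspinal over neurofibroma the corresponding medians were -1.01 and 1.18, and for GEM-PNST over paraspinal, within 1 run, they were -0.02 and 0.24. Length mattered as well, since the class of the longest genes, of 5, had a median of -1.23 for GEM-PNST over neurofibroma and -0.35 for GEM-PNST over paraspinal. The RAS GAP genes lie on both sides of this trend: Rasa2, Rasa1, Nf1 and Rasal2 had exonic GC contents of 39.8%, 41.9%, 44.9% and 46.9%, and Rasa3, Rasa4, Rasal3, Dab2ip and Rasal1 had 52.7%, 55.2%, 57.4%, 58.9% and 60.7%. The main fold changes of the RAS GAP genes against neurofibroma are therefore also given with this trend removed. A smooth trend over exon length and GC content was taken out of every library, at the overall scale of the main fit. Other fold changes below are given with the trend removed only where stated. Length is that of all annotated exons of a gene, and GC content is that of its longest transcript. A removed trend can take real differences of long or AT-rich genes with it, and which of the values is nearer to the RNA in the tumors was not tested. Setting the trend to that scale was chosen after seeing the data.

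**Figure D1:**
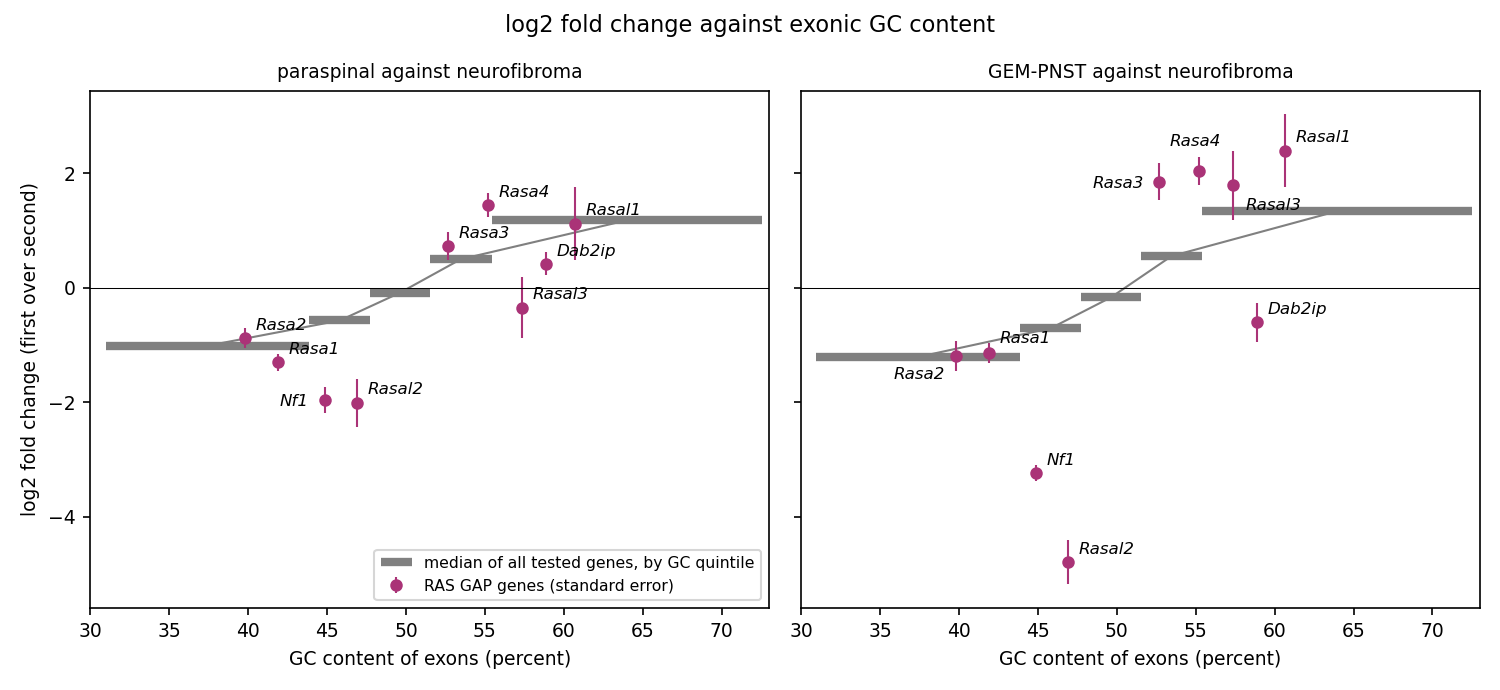
Log2 fold change (vertical axis) against exonic GC content in percent (horizontal axis) for paraspinal over neurofibroma (left) and GEM-PNST over neurofibroma (right). Grey bars are the medians of all tested genes in 5 classes of GC content and points are the 9 RAS GAP genes with their standard errors. Rasa2 and Rasa1 lie near the grey medians, while Nf1 and Rasal2 lie below them, at -3.24 and -4.79 for GEM-PNST over neurofibroma.

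The sequences just before the annotated starts of Nf1, Rasal2, Rasa3 and Rasa4 are shown because these 4 genes were called in the same direction in GEM-PNST against neurofibroma with the trend left in and with it removed. They are read from RefSeq on GRCm38.p6. RefSeq windows were found for 8 of the 9 genes, and none was found for Rasal1. Each window is 250 bases long and the part before the GENCODE gene start is printed, 5′ to 3′ on the strand of the gene. Capitals mark motifs searched on both strands: the GC box GGGCGG, the CRE TGACGTCA, the E-box CACGTG, the ETS core CCGGAAG and the TATA box TATAAA.

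Nf1 (chr11:79339642-79339692, plus strand): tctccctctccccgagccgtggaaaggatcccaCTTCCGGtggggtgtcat
Rasal2 (chr1:157412596-157412845, minus strand): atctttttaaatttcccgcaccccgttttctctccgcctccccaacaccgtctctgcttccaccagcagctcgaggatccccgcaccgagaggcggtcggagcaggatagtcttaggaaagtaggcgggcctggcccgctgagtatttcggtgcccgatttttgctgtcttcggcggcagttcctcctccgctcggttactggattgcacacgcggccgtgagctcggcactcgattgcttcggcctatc
Rasa3 (chr8:13677604-13677837, minus strand): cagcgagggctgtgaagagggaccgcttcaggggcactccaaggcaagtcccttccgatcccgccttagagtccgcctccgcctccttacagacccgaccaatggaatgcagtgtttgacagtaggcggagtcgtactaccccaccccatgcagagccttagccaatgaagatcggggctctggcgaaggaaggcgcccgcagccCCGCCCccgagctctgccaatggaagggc
Rasa4 (chr5:136083666-136083915, plus strand): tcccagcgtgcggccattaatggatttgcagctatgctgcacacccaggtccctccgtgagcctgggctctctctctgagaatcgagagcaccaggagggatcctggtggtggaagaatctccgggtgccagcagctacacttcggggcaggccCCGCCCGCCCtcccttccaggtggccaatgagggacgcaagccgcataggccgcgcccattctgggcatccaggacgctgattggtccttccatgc

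The Nf1 window held 1 ETS core, read on the other strand as CTTCCGG, and no GC box, and 6.91% of all 32841 promoter windows held an ETS core. The Rasal2 window held none of the 5 motifs. Rasa3 had 1 GC box and Rasa4 had 2 that overlap, a motif present in 32.7% of windows. None of the 4 windows held the CRE, the E-box or the TATA box, which stood in 1.55%, 6.02% and 12.4% of windows. Over the full 250 bases, GC content was 74.0% for Nf1, 59.6% for Rasal2, 64.4% for Rasa3 and 63.2% for Rasa4, against a median of 52.4% over all windows. CG pairs numbered 21, 23, 18 and 13 in the same order, against a median of 6. A match describes letters in a window and says nothing of binding.

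The RAS GAP genes did not move together. Nf1 and Rasal2 were lowest in GEM-PNST. As counted, Rasa1 and Rasa2 were lower in GEM-PNST and paraspinal tumors than in neurofibroma, and Rasa3 and Rasa4 were higher. Rasa2 reversed once the trend was removed. Rasal1, Rasal3 and Dab2ip had groups that overlapped in all 3 stage comparisons. The values that follow are CPM, which are counts set to a common library size, scaled by TMM factors over all 20 libraries, and fold changes are on the log2 scale, tested across all 16589 genes with edgeR and Benjamini-Hochberg adjustment at 0.05.

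**Figure D2:**
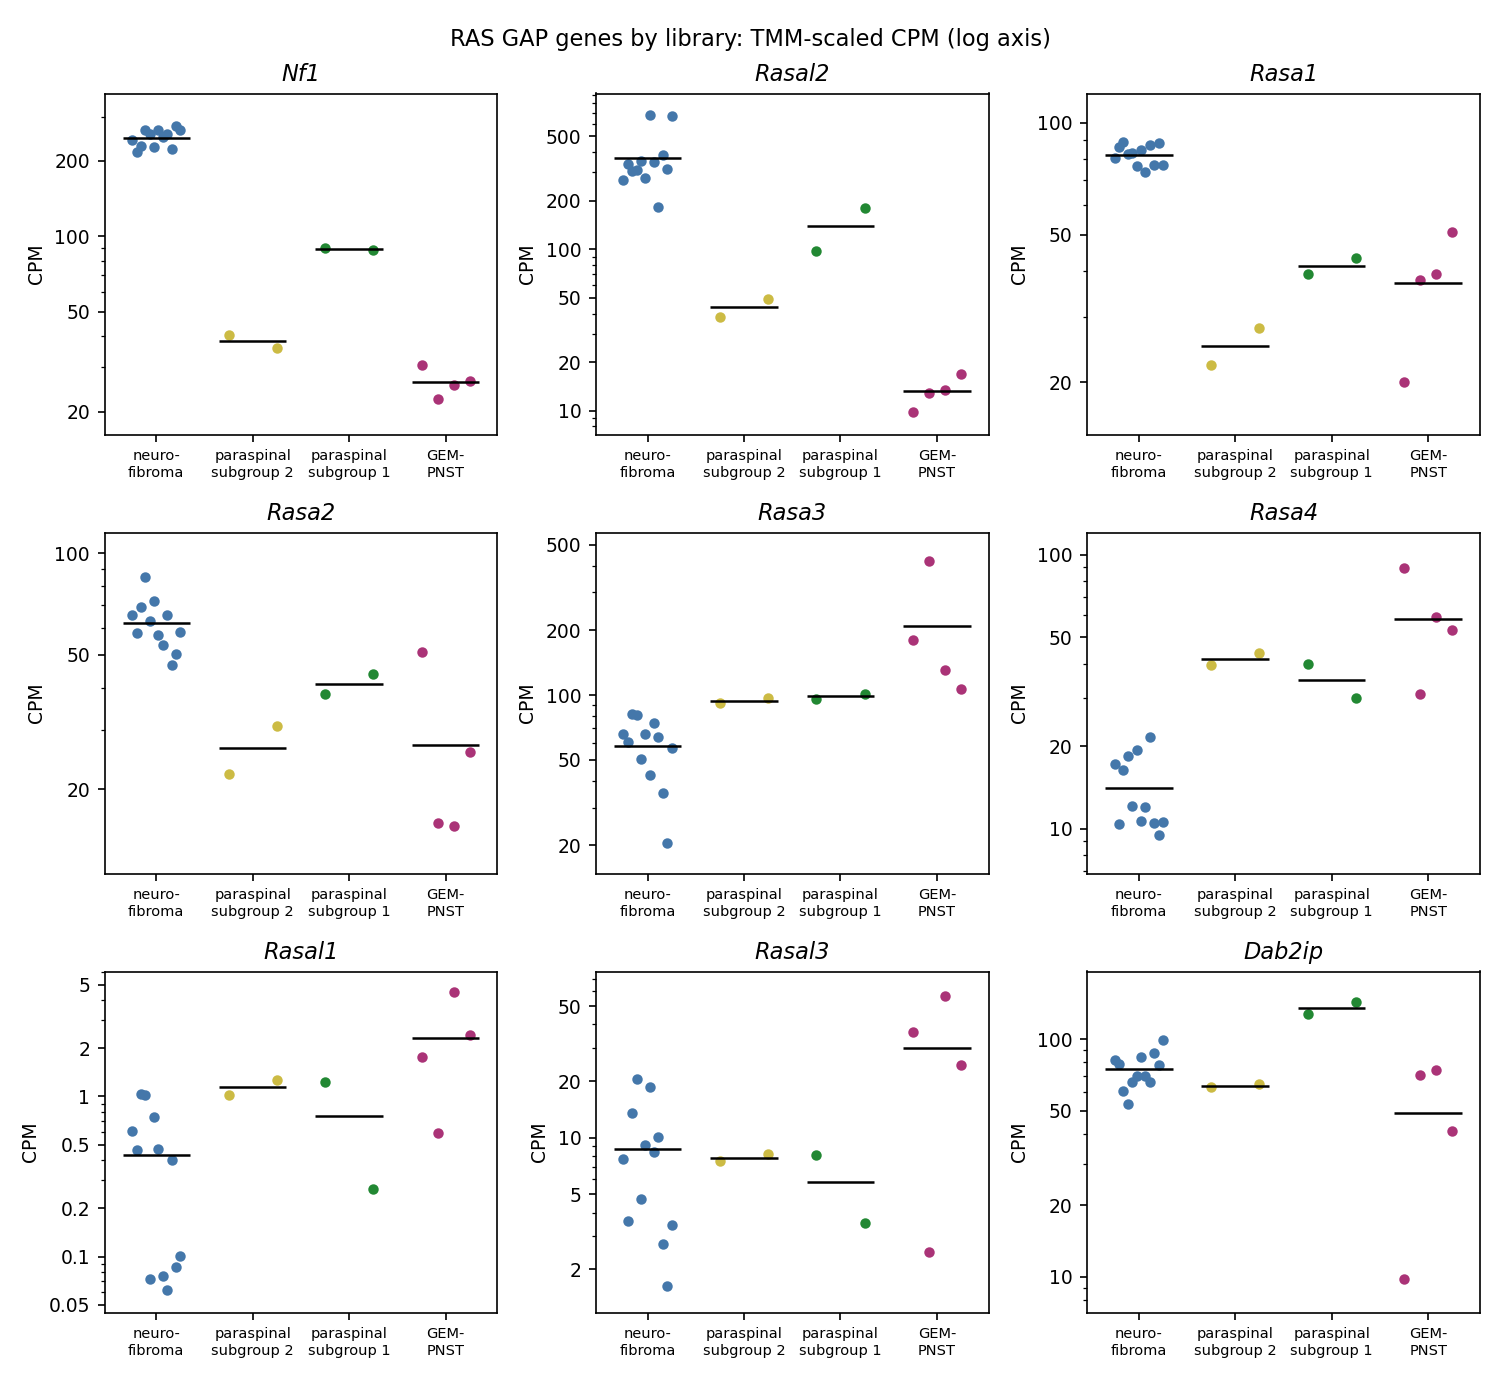
TMM-scaled CPM on a logarithmic vertical axis for each of the 9 genes, with 1 panel per gene. Points are libraries, grouped as neurofibroma (12), paraspinal subgroup 2 (2), paraspinal subgroup 1 (2) and GEM-PNST (4), and horizontal lines are group means. The 4 GEM-PNST libraries lie below all others for Nf1 (22.4 to 30.6 CPM) and Rasal2 (9.87 to 16.95 CPM).

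Nf1 (chr11:79339693-79581612, plus strand on GRCm38), the floxed gene, was lowest in GEM-PNST. It had 30.6, 22.4, 25.5 and 26.4 CPM in the 4 GEM-PNST libraries, against 40.6 and 35.8 CPM in paraspinal subgroup 2 and 89.6 and 87.8 CPM in subgroup 1. In the 12 neurofibroma libraries the lowest, median and highest values were 217, 253 and 275 CPM. The order neurofibroma, subgroup 1, subgroup 2 and GEM-PNST, from high to low, had no overlap between neighbours. Group means were 26.2 ± 3.38 CPM in GEM-PNST (SD, n = 4), 63.5 ± 29.3 CPM in paraspinal (n = 4) and 248 ± 19.7 CPM in neurofibroma libraries (n = 12).

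Against neurofibroma, Nf1 was 9.44-fold lower in GEM-PNST (log2 fold change -3.24, SE 0.14, edgeR adjusted p = 2.84e-11) and 3.90-fold lower in paraspinal tumors (-1.97, SE 0.22, adjusted p = 1.06e-06). Against each neurofibroma run alone the values were -3.19 and -3.29 for GEM-PNST and -1.92 and -2.01 for paraspinal tumors, and all 4 passed. Subgroup 2 alone stood at -2.70 and subgroup 1 alone at -1.48 over neurofibroma. With the length and GC trend removed, the fold change was -1.16 for GEM-PNST (SE 0.16, adjusted p = 6.49e-06) and -0.76 for paraspinal tumors (SE 0.11, adjusted p = 2.39e-05). Both calls stood at a smaller size. These 2 comparisons share the neurofibroma libraries.

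Within the shared run, the difference in Nf1 between GEM-PNST and paraspinal tumors was -1.27 (SE 0.36, adjusted p = 0.0560), so it did not pass although no library overlapped. Against subgroup 1 alone it passed (-1.76, adjusted p = 0.0246), and against subgroup 2 alone it was -0.54 (adjusted p = 0.454). With the trend removed it was -0.40 (SE 0.25, adjusted p = 0.280). Subgroup 2 against subgroup 1 gave -1.22 (SE 0.28, adjusted p = 0.293), and -0.26 with the trend removed (adjusted p = 0.939). Counts here are per gene, so they do not show which exons were read: reads from outside the floxed exons and from cells without Cre are included, and the values do not check the deletion. Cdkn2a, the gene of the Ink4a/Arf locus, had a median of 6.30 CPM in GEM-PNST, 17.6 CPM in paraspinal and 0.368 CPM in neurofibroma libraries.

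Rasal2 (chr1:157135182-157412595, minus strand), from the same family as Rasal3 and Dab2ip, showed the same order as Nf1 with a wider span. It had 9.87, 12.9, 13.4 and 16.95 CPM in GEM-PNST, against 38.0 and 49.2 CPM in subgroup 2 and 97.6 and 181 CPM in subgroup 1. Neurofibroma libraries ran from 182 CPM through a median of 326 CPM to 682 CPM. No neighbouring groups overlapped, though the higher subgroup 1 library, at 181 CPM, came close to the lowest neurofibroma library, at 182 CPM.

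Rasal2 was the only RAS GAP gene called between GEM-PNST and paraspinal tumors, 6.88-fold lower in GEM-PNST (-2.78, SE 0.52, adjusted p = 0.0157). It was 27.7-fold lower in GEM-PNST than in neurofibroma (-4.79, SE 0.39, adjusted p = 1.47e-08) and 4.03-fold lower in paraspinal tumors than in neurofibroma (-2.01, SE 0.42, adjusted p = 5.11e-04). These calls stood with the trend removed, at -1.91 (adjusted p = 0.00976), -3.11 (adjusted p = 3.49e-07) and -1.20 (adjusted p = 0.00423). Against the first and the second neurofibroma run alone, GEM-PNST gave -4.53 and -5.01 and paraspinal tumors -1.75 and -2.23. Against subgroup 2 alone the difference to GEM-PNST did not pass (-1.72, adjusted p = 0.109), and against subgroup 1 alone it did (-3.39, adjusted p = 0.0143). Paraspinal subgroup 2 alone stood at -3.08 over neurofibroma and subgroup 1 alone at -1.41. Between the subgroups the difference was -1.67 (SE 0.41, adjusted p = 0.293). A transcribed pseudogene, 2810025M15Rik, shares 244 exonic bases with Rasal2 on the other strand, and the strand setting of the counting is not given, so reads of the pair cannot be told apart there.

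Dab2ip (chr2:35558266-35730994, plus strand), which codes for a scaffold of the same family, was highest in paraspinal subgroup 1. It had 9.81, 71.1, 74.0 and 41.3 CPM in GEM-PNST, against 62.8 and 65.0 CPM in subgroup 2 and 128 and 143 CPM in subgroup 1. Neurofibroma libraries ran from 53.4 CPM through 74.2 CPM to 99.9 CPM, between the paraspinal subgroups in mean and overlapping with subgroup 2. GEM-PNST library 1 stood far below the other 3.

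No stage comparison of Dab2ip passed: GEM-PNST over paraspinal was -1.02 (SE 0.59, adjusted p = 0.251), GEM-PNST over neurofibroma -0.61 (SE 0.33, adjusted p = 0.111) and paraspinal over neurofibroma 0.41 (SE 0.20, adjusted p = 0.0863). The last of these joined subgroup 1, at 0.86 over neurofibroma (adjusted p = 9.82e-04), with subgroup 2, at -0.23 (adjusted p = 0.319). It passed without either subgroup 2 library (0.58 and 0.57). With the trend removed Dab2ip was lower in both, at -1.18 for GEM-PNST (adjusted p = 0.00208) and -0.76 for paraspinal tumors (adjusted p = 2.59e-04), which reverses the paraspinal value. For GEM-PNST it also passed with RLE factors (-0.79, adjusted p = 0.0410), with DESeq2 (-0.78, adjusted p = 0.0240) and without GEM-PNST library 3 (-0.88, adjusted p = 0.0440). Gm13446, a transcript on the other strand, shares 347 exonic bases with it.

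Rasa1 (chr13:85214780-85289130, minus strand), whose protein docks on activated receptors, was lower in GEM-PNST and paraspinal tumors than in neurofibroma as counted. Once the trend was removed, it was called lower in paraspinal tumors alone. It had 20.1, 37.8, 39.1 and 50.9 CPM in GEM-PNST, against 22.3 and 28.0 CPM in subgroup 2 and 39.1 and 43.4 CPM in subgroup 1. All 12 neurofibroma libraries were higher, from 73.9 CPM through 82.8 CPM to 88.8 CPM. GEM-PNST overlapped with both paraspinal subgroups. Its fold change was -1.15 for GEM-PNST over neurofibroma (SE 0.17, adjusted p = 1.80e-05), -1.31 for paraspinal over neurofibroma (SE 0.15, adjusted p = 1.00e-06) and 0.16 for GEM-PNST over paraspinal (SE 0.35, adjusted p = 0.788). With the trend removed, the GEM-PNST value against neurofibroma was -0.01 (SE 0.15, adjusted p = 0.947) and the call was lost, while the paraspinal value was -0.44 (SE 0.09, adjusted p = 7.17e-04). With each neurofibroma run alone, GEM-PNST gave -1.16 and -1.13 and paraspinal tumors -1.32 and -1.29. Ccnh shares 12 exonic bases with it on the other strand.

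Rasa2 (chr9:96539300-96631617, minus strand), whose protein binds membrane lipids, changed direction when the trend was removed. It had 51.0, 15.9, 15.6 and 25.8 CPM in GEM-PNST, against 22.1 and 30.7 CPM in subgroup 2 and 38.3 and 43.8 CPM in subgroup 1. Neurofibroma libraries ran from 46.5 CPM through 60.7 CPM to 85.2 CPM. All paraspinal libraries were below them, and GEM-PNST library 1 overlapped with them while the other 3 did not.

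As counted, Rasa2 was lower by 1.197 in GEM-PNST (SE 0.27, adjusted p = 7.42e-04) and by 0.88 in paraspinal tumors (SE 0.18, adjusted p = 4.25e-04) against neurofibroma. With the trend removed it was higher by 1.19 (SE 0.28, adjusted p = 0.00121) and by 0.79 (SE 0.16, adjusted p = 4.33e-04), so both calls reversed. As counted and with each neurofibroma run alone, GEM-PNST gave -1.35 and -1.03 and paraspinal tumors -1.03 and -0.71. Of the 9 genes it has the lowest GC content and the greatest length over all annotated exons, 15856 bases, the length used for the trend. Its longest transcript has 6579 bases, shorter than that of Nf1 at 11917 bases. Between GEM-PNST and paraspinal tumors it was -0.32 (SE 0.44, adjusted p = 0.640), and 0.40 with the trend removed.

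Rasa3 (chr8:13566948-13677603, minus strand), a membrane-bound activator that also acts on the RAS relative RAP, was highest in GEM-PNST. It had 180, 422, 131 and 107 CPM in GEM-PNST, against 92.1 and 96.4 CPM in subgroup 2 and 96.2 and 101 CPM in subgroup 1. Neurofibroma libraries ran from 20.5 CPM through 62.0 CPM to 81.3 CPM. GEM-PNST lay above paraspinal and paraspinal above neurofibroma with no overlap, and the paraspinal subgroups overlapped with each other.

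The fold change of Rasa3 was 1.85 for GEM-PNST over neurofibroma (SE 0.32, adjusted p = 6.52e-05), a 3.61-fold higher level, and 1.498 with the trend removed (adjusted p = 4.63e-04). Without GEM-PNST library 2 it was 1.26 and still passed (adjusted p = 0.00109). For paraspinal over neurofibroma it was 0.73 (SE 0.25, adjusted p = 0.0172), and this call was lost with the trend removed (0.24, adjusted p = 0.453), with RLE factors (0.57, adjusted p = 0.0546), with all libraries in 1 fit (0.73, adjusted p = 0.0568) and with either paraspinal subgroup alone. By neurofibroma run, GEM-PNST gave 1.64 and 2.11 and paraspinal tumors 0.51 and 0.98. GEM-PNST over paraspinal was 1.12 (SE 0.44, adjusted p = 0.113), and 0.53 without library 2.

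Rasa4 (chr5:136083916-136111860, plus strand), whose protein is recruited to the membrane by calcium, was also higher in GEM-PNST and paraspinal tumors than in neurofibroma. It had 89.2, 31.1, 59.3 and 53.0 CPM in GEM-PNST, against 39.6 and 43.9 CPM in subgroup 2 and 39.9 and 30.01 CPM in subgroup 1. Neurofibroma libraries were all lower, from 9.52 CPM through 12.1 CPM to 21.6 CPM. GEM-PNST library 2 lay within the paraspinal range and the other 3 above it. The fold change was 2.04 for GEM-PNST over neurofibroma (SE 0.25, adjusted p = 1.35e-06), or 4.13-fold, and 1.44 for paraspinal over neurofibroma (SE 0.21, adjusted p = 1.29e-05), or 2.72-fold. Both passed with the trend removed, at 1.82 (adjusted p = 2.10e-05) and 0.80 (adjusted p = 0.00851). Over each neurofibroma run alone, GEM-PNST gave 1.89 and 2.22 and paraspinal tumors 1.29 and 1.62. GEM-PNST over paraspinal was 0.60 (SE 0.33, adjusted p = 0.236). A miRNA gene, Mir7035, shares 82 exonic bases with Rasa4 on the same strand, and an annotated antisense transcript shares 182.

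Rasal1 (chr5:120648812-120679597, plus strand), another calcium-dependent member, had the lowest level per exon length of the 9 genes in every stage. It had 1.76, 0.594, 4.47 and 2.42 CPM in GEM-PNST, against 1.02 and 1.27 CPM in subgroup 2 and 1.24 and 0.265 CPM in subgroup 1. Neurofibroma libraries ran from 0.0619 CPM through 0.431 CPM to 1.04 CPM. These levels rest on 157 counts over the GEM-PNST, 92 over the paraspinal and 72 over the neurofibroma libraries. All neighbouring groups overlapped, and GEM-PNST library 2 lay inside the neurofibroma range. It was called for GEM-PNST over neurofibroma (2.39, SE 0.64, adjusted p = 0.0030), at 1.80 against the first neurofibroma run and 3.50 against the second, and not with the trend removed (0.98, adjusted p = 0.220). Paraspinal over neurofibroma was 1.12 (SE 0.64, adjusted p = 0.140) and GEM-PNST over paraspinal 1.28 (SE 0.76, adjusted p = 0.265).

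Rasal3 (chr17:32390659-32403583, minus strand), known in the mouse from blood cells and T cell survival, varied widely between GEM-PNST libraries. It had 36.5, 2.48, 56.6 and 24.3 CPM in GEM-PNST, against 7.52 and 8.16 CPM in subgroup 2 and 8.09 and 3.54 CPM in subgroup 1. Neurofibroma libraries ran from 1.63 CPM through 8.05 CPM to 20.6 CPM. GEM-PNST library 2 was below all paraspinal libraries and inside the neurofibroma range, and the other 3 were above both stages. An annotated antisense transcript shares 635 exonic bases with Rasal3, and without a stated strand setting its reads cannot be told apart.

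The sum of 6 pan-leukocyte markers was 11153, 507, 1715 and 1129 CPM in libraries 1 to 4, against 156 to 433 CPM in paraspinal and 70.4 to 648 CPM in neurofibroma libraries, with no marker at 0. The sum of 8 T and NK cell markers was 19.5, 2.81, 287 and 70.1 CPM in the same GEM-PNST libraries, against 5.88 to 9.70 CPM and 9.95 to 244 CPM. Library 2 was lowest and library 3 highest for both Rasal3 and the T and NK cell sum, and the part of leukocytes in its level was not tested. Rasal3 passed for GEM-PNST over neurofibroma (1.79, SE 0.60, adjusted p = 0.0136), but not without GEM-PNST library 3 (1.28, adjusted p = 0.0948), against the first neurofibroma run alone (1.60, adjusted p = 0.0662) or with the trend removed (0.84, adjusted p = 0.266). GEM-PNST over paraspinal was 2.13 (SE 0.78, adjusted p = 0.0977) and passed without library 2 (2.52, adjusted p = 0.0187). Paraspinal over neurofibroma was -0.35 (SE 0.54, adjusted p = 0.601), and with the trend removed it was lower and passed (-1.58, adjusted p = 0.0426).

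Set against all genes, the RAS GAP genes were called about as often as the rest. Between GEM-PNST and paraspinal tumors 1 of 9 was called, lower, where 10.9% of all genes were called, 3.07% higher and 7.82% lower. Against neurofibroma, 8 of 9 were called in GEM-PNST, 4 higher and 4 lower, where 73.3% of all genes were called, 35.4% higher and 37.9% lower. In paraspinal tumors 6 of 9 were called against neurofibroma, 2 higher and 4 lower, where 59.5% of all genes were called, 30.3% higher and 29.3% lower. Groups did not overlap for 3 members between GEM-PNST and paraspinal tumors, 1 higher (Rasa3) and 2 lower (Nf1 and Rasal2), where 27.6% of all genes had no overlap, 11.2% higher and 16.4% lower. Between GEM-PNST and neurofibroma 5 did not overlap, 2 higher and 3 lower, with 46.5% of all genes (21.3% higher and 25.2% lower). Between paraspinal tumors and neurofibroma 6 did not, 2 higher and 4 lower, with 36.5% of all genes (18.4% higher and 18.1% lower). The median log2 fold change of the 9 was 0.16 for GEM-PNST over paraspinal, -0.61 for GEM-PNST over neurofibroma and -0.35 for paraspinal over neurofibroma, beside medians of 0.04, -0.12 and -0.01 over all genes. Comparisons that share a stage share its libraries.

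With the trend removed, 1 member was called between GEM-PNST and paraspinal tumors (14.3% of all genes), 6 between GEM-PNST and neurofibroma (69%) and 7 between paraspinal tumors and neurofibroma (47.9%). Nf1, Rasal2 and Rasa4 were called in the same direction against neurofibroma in GEM-PNST and in paraspinal tumors, with the trend left in and with it removed. Rasa3 met this for GEM-PNST alone.

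**Figure D3:**
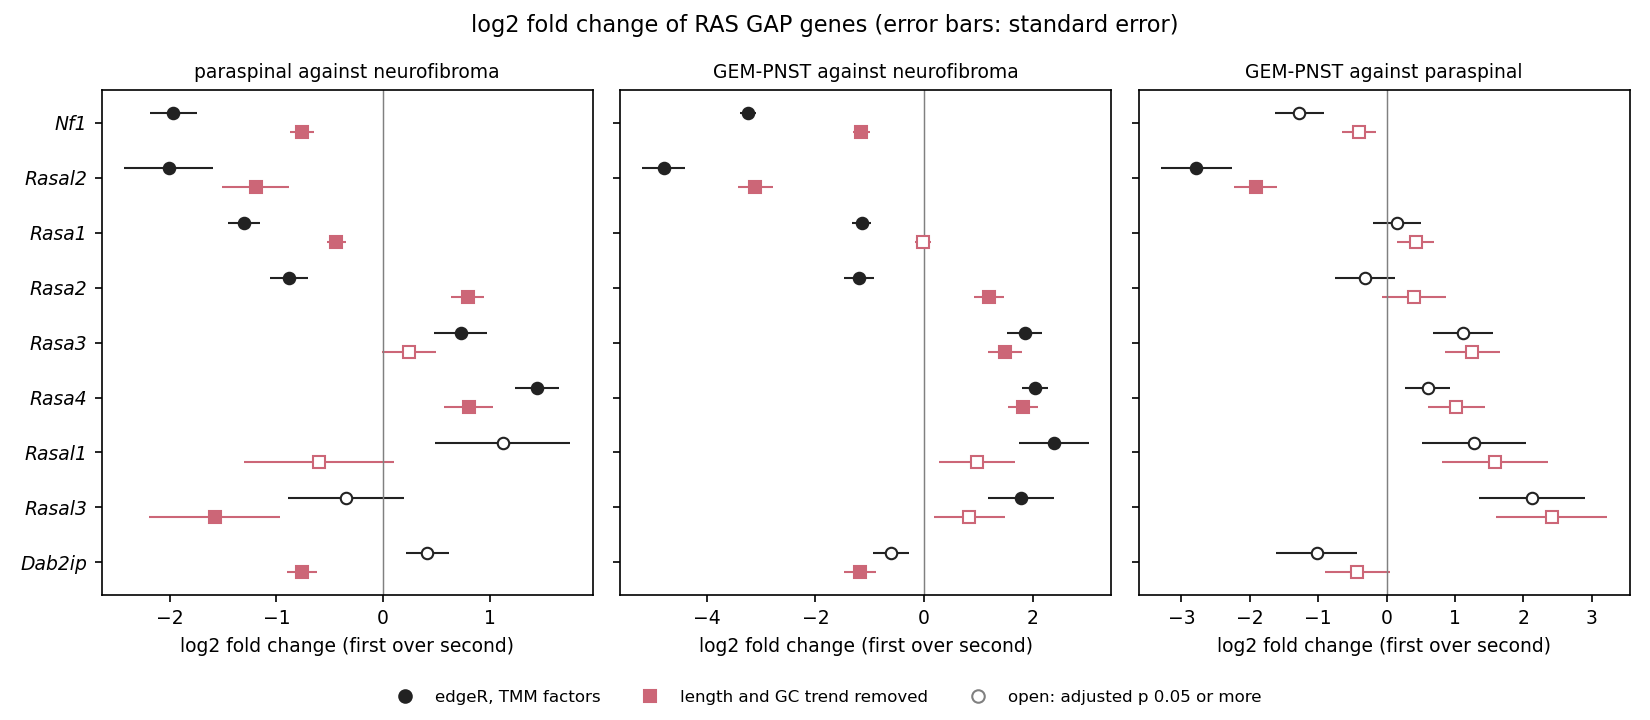
Log2 fold changes (horizontal axis) of the 9 genes (rows) for paraspinal over neurofibroma, GEM-PNST over neurofibroma and GEM-PNST over paraspinal, with standard errors as bars. Black circles are the edgeR fit with TMM factors, squares the fit after removal of the length and GC trend, and open symbols have an adjusted p of 0.05 or more. Rasa2 changes sign against neurofibroma (-1.197 and 1.19 for GEM-PNST), and Nf1 stays negative (-3.24 and -1.16).

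Between paraspinal subgroup 2 and subgroup 1, no RAS GAP gene passed in edgeR, and 0 of 16589 genes did. At an unadjusted p under 0.05 there were 1991 genes (12%), Nf1 and Rasal2 among them. DESeq2 called 1212 genes (7.31%), with Nf1 and Rasal2 lower in subgroup 2, and limma-voom called 5410 (32.6%), with Nf1, Rasal2, Rasa1 and Dab2ip lower. In subgroup 2, 5 members were below subgroup 1 in both libraries (Nf1, Rasal2, Rasa1, Rasa2 and Dab2ip), and none was above it. Of all genes, 69.6% had no overlap in this comparison of 2 with 2 libraries, 34.6% higher and 34.9% lower. The differences of Rasa1, Rasa2 and Dab2ip were -0.71, -0.64 and -1.08. The class of the longest genes had a median of -0.67 in this comparison, and with the trend removed Rasal2 was at -0.78, Rasa1 at -0.24, Rasa2 at 0.29 and Dab2ip at -0.54, with none passing.

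Levels of different genes can be compared per exon length, as CPM per kilobase of annotated exon. On this scale Rasa3 ranked first of the 9 in GEM-PNST, at 41.2 ± 28.4, and in paraspinal libraries, at 18.9 ± 0.709, while Rasal2 ranked first in neurofibroma, at 26.8 ± 11.04 (SD, n = 4, 4 and 12). Nf1 ranked 7 of 9 in GEM-PNST at 1.66 ± 0.213, 6 in paraspinal at 4.003 ± 1.85 and 2 in neurofibroma at 15.6 ± 1.24. Of the summed level of all 9 genes per kilobase, Nf1 made up 2.54% ± 0.857 in GEM-PNST, 7.01% ± 1.91 in paraspinal and 19.4% ± 2.54 in neurofibroma libraries. Rasal2 made up 1.49% ± 0.693, 11.2% ± 5.63 and 32.0% ± 8.35, and Rasa3 53.9% ± 18.0, 35.7% ± 7.12 and 14.1% ± 4.69, in the same order of stages. The sum itself was 71.0 ± 23.4 CPM per kilobase in GEM-PNST, 54.9 ± 12.7 in paraspinal and 81.7 ± 11.7 in neurofibroma libraries. These shares carry the same GC trend in comparisons with neurofibroma. Longest transcripts in place of all exons kept each mean share of Nf1 within 1 SD.

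**Figure D4:**
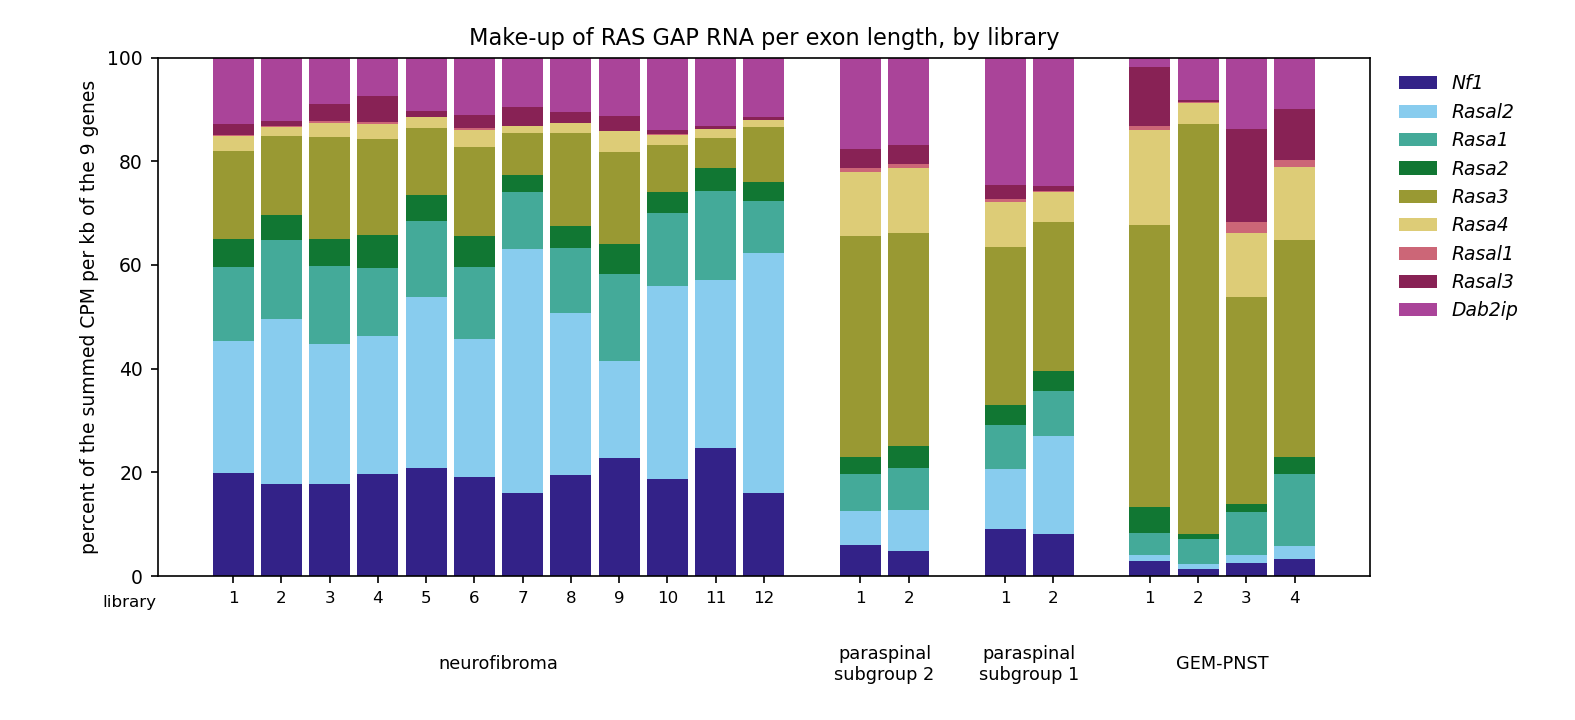
Share of each of the 9 genes, in percent of their summed CPM per kilobase of exon (vertical axis), in each of the 20 libraries, grouped by stage and paraspinal subgroup. Each colored segment is 1 gene. Nf1 takes 16% to 24.6% of the bar in neurofibroma libraries and 1.353% to 3.32% in GEM-PNST libraries, where Rasa3 takes 40% to 79.1%.

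The 3 protein-coding genes of the table that lie inside introns of Nf1 on the opposite strand, Evi2a, Evi2b and Omg, did not follow it alike. They share 0 exonic bases with Nf1. Omg (chr11:79500982-79504084), a glycoprotein of myelin that inhibits neurite growth, had 0.406, 0.0540, 0.0992 and 0.161 CPM in GEM-PNST, against 3.64 and 3.31 CPM in subgroup 2 and 8.67 and 5.66 CPM in subgroup 1. Neurofibroma libraries had 11.04 CPM at the lowest, 22.3 CPM at the median and 25.2 CPM at the highest. Omg kept the same order of groups as Nf1, without overlap. Its fold change was -4.86 for GEM-PNST over paraspinal (SE 0.79, adjusted p = 0.00931), -6.80 for GEM-PNST over neurofibroma (SE 0.47, adjusted p = 2.32e-09) and -1.93 for paraspinal over neurofibroma (SE 0.29, adjusted p = 1.81e-05). All 3 passed with the trend removed, and without GEM-PNST library 1 the first 2 were -5.63 and -7.55.

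Evi2a (chr11:79526560-79530609), known from retroviral insertions in mouse leukemia, went the other way. It had 264, 21.0, 62.8 and 72.7 CPM in GEM-PNST, against 16.2 and 15.7 CPM in subgroup 2, 9.08 and 2.43 CPM in subgroup 1 and 3.35, 8.33 and 19.8 CPM as the lowest, median and highest of neurofibroma. All GEM-PNST libraries were above all others, with library 1, the one with the most pan-leukocyte marker RNA, far above the rest. Its fold change was 3.28 for GEM-PNST over paraspinal (SE 0.86, adjusted p = 0.0461) and 3.47 over neurofibroma (SE 0.50, adjusted p = 1.07e-05). Without library 1 these were 2.26 and 2.46, and the first lost its call without paraspinal subgroup 1 library 1 (adjusted p = 0.133). Evi2b had 0 counts in GEM-PNST and paraspinal libraries, which allows up to 0.0456 and 0.0316 CPM over each group at 3 counts, and 19 counts over the neurofibroma libraries. It did not pass the filter and was not tested.

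Around the activators, genes of the RAS pathway were called against neurofibroma in both directions, beside 73.3% of all genes called there (35.4% higher and 37.9% lower) and 10.9% between GEM-PNST and paraspinal tumors. The counts below are a description and are not set apart from those shares. Over 41 genes in 6 lists, members called higher, lower and neither in GEM-PNST against neurofibroma were 3, 3 and 0 RAS GTPases, 3, 3 and 2 exchange factors, 2, 4 and 1 receptor adaptors, 2, 3 and 4 RAF, MEK, ERK and scaffold genes, 2, 3 and 1 neurofibromin partners and RAS turnover genes, and 1, 3 and 1 other genes with a RAS GAP domain or fold. Between GEM-PNST and paraspinal tumors, no gene of these lists was called higher in GEM-PNST, and the RAF, MEK, ERK and scaffold list had 2 called lower, Ksr1 and Ksr2. List medians for GEM-PNST over neurofibroma ran from -1.55 for the other GAP-domain genes to 0.61 for the GTPases, beside -0.12 over all genes. With the trend removed, where 69% of all genes were called, RAS GTPases had 2 higher and 2 lower and the RAF, MEK, ERK and scaffold list 4 higher and 4 lower.

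Hras, 1 of the RAS proteins proper, had a median of 96.2 CPM in GEM-PNST, 79.9 CPM in paraspinal and 14.8 CPM in neurofibroma libraries (2.58 for GEM-PNST over neurofibroma, adjusted p = 3.27e-08, and 1.60 with the trend removed). Rras2, of a related branch, had 36.1, 13.5 and 11.1 CPM in the same order (1.96, adjusted p = 0.00113, and 2.21) and stood at 1.12 without GEM-PNST library 4. Hras libraries did not overlap between GEM-PNST and neurofibroma, and Rras2 libraries did.

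Among exchange factors, Sos2, which reloads RAS at receptors, had medians of 16.7 CPM in GEM-PNST, 29.8 CPM in paraspinal and 92.2 CPM in neurofibroma libraries (-2.64, adjusted p = 2.83e-08, and -1.44 with the trend removed). Rasgrp1, a diacylglycerol-dependent factor known from T cells, had 6.68, 37.2 and 73.1 CPM (-4.14, adjusted p = 0.00114, and -3.55), with -4.95 without GEM-PNST library 3. Rasgrp4, known from mast cells, had 5.02 to 390 CPM over the GEM-PNST libraries (4.02, adjusted p = 7.18e-05), and this fell to 1.47 without library 1 (adjusted p = 0.0198). Of the receptor adaptors, Cbl, a ubiquitin ligase, had 6.86, 19.0 and 131 CPM (-4.13, adjusted p = 2.07e-07, and -2.60), and Gab1 25.6, 145 and 277 CPM (-3.34, adjusted p = 1.39e-05, and -3.58), with -3.95 without GEM-PNST library 3. For Cbl, the paraspinal median lay between the subgroups, with 3.01 and 2.59 CPM in subgroup 2 and 36.9 and 34.9 CPM in subgroup 1. GEM-PNST libraries had 2.64 to 14.5 CPM of Cbl. Frs2, which couples FGF receptors to RAS, had 21.7, 32.2 and 126 CPM (-2.56, adjusted p = 1.49e-07, and -1.40).

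Of the partners of neurofibromin, Spred2, from the family that brings it to the membrane, had 3.19, 26.8 and 48.0 CPM (-3.49, adjusted p = 2.04e-06, and -3.64), with -4.22 without GEM-PNST library 4. Its paraspinal median also lay between the subgroups, with 6.84 and 3.39 CPM in subgroup 2 and 50.4 and 46.8 CPM in subgroup 1. GEM-PNST libraries had 1.39 to 9.53 CPM of Spred2. Shoc2, a scaffold of the phosphatase that activates RAF, had 27.0, 41.2 and 226 CPM (-3.02, adjusted p = 8.20e-09, and -2.12). Ppp1cb, the catalytic partner of Shoc2, had 49.9, 65.1 and 199 CPM (-1.68, adjusted p = 2.58e-05), and stood at -0.02 with the trend removed (adjusted p = 0.93). Downstream, Map2k2, which codes for MEK2, had 169, 110 and 17.7 CPM (3.29, adjusted p = 9.64e-11, and 2.27).

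Ksr1, a scaffold for RAF and MEK, had medians of 1.69 CPM in GEM-PNST, 20.9 CPM in paraspinal and 12.3 CPM in neurofibroma libraries. It was lower in GEM-PNST than in both, at -3.45 over paraspinal (adjusted p = 0.0328) and -2.71 over neurofibroma (adjusted p = 1.04e-06), and the first was lost without paraspinal subgroup 1 library 2 (adjusted p = 0.0977). Among paraspinal libraries, Ksr1 had 8.35 and 5.06 CPM in subgroup 2 and 33.4 and 39.1 CPM in subgroup 1. Its relative Ksr2 had 1 count over the GEM-PNST libraries, against 294 over the paraspinal and 1675 over the neurofibroma libraries. Its call against paraspinal tumors (adjusted p = 0.0289) was likewise lost without paraspinal subgroup 1 library 2 (adjusted p = 0.0793). The ratio of scaled levels was 0.00490 to paraspinal (95% counting interval 1.24e-04 to 0.0275) and 0.00147 to neurofibroma (3.73e-05 to 0.00822). The sensory neuron marker sums given above were also low in the GEM-PNST libraries, in a range that holds neurofibroma library 4 as well, and their part in Ksr2 was not tested. Iqgap3, which has a GAP-like fold and no known GAP activity, had 22.3, 8.27 and 3.33 CPM (2.91 over neurofibroma, adjusted p = 1.36e-05), and Iqgap2 39.5, 56.3 and 179 CPM (-2.33, adjusted p = 1.02e-04).

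**Figure D5:**
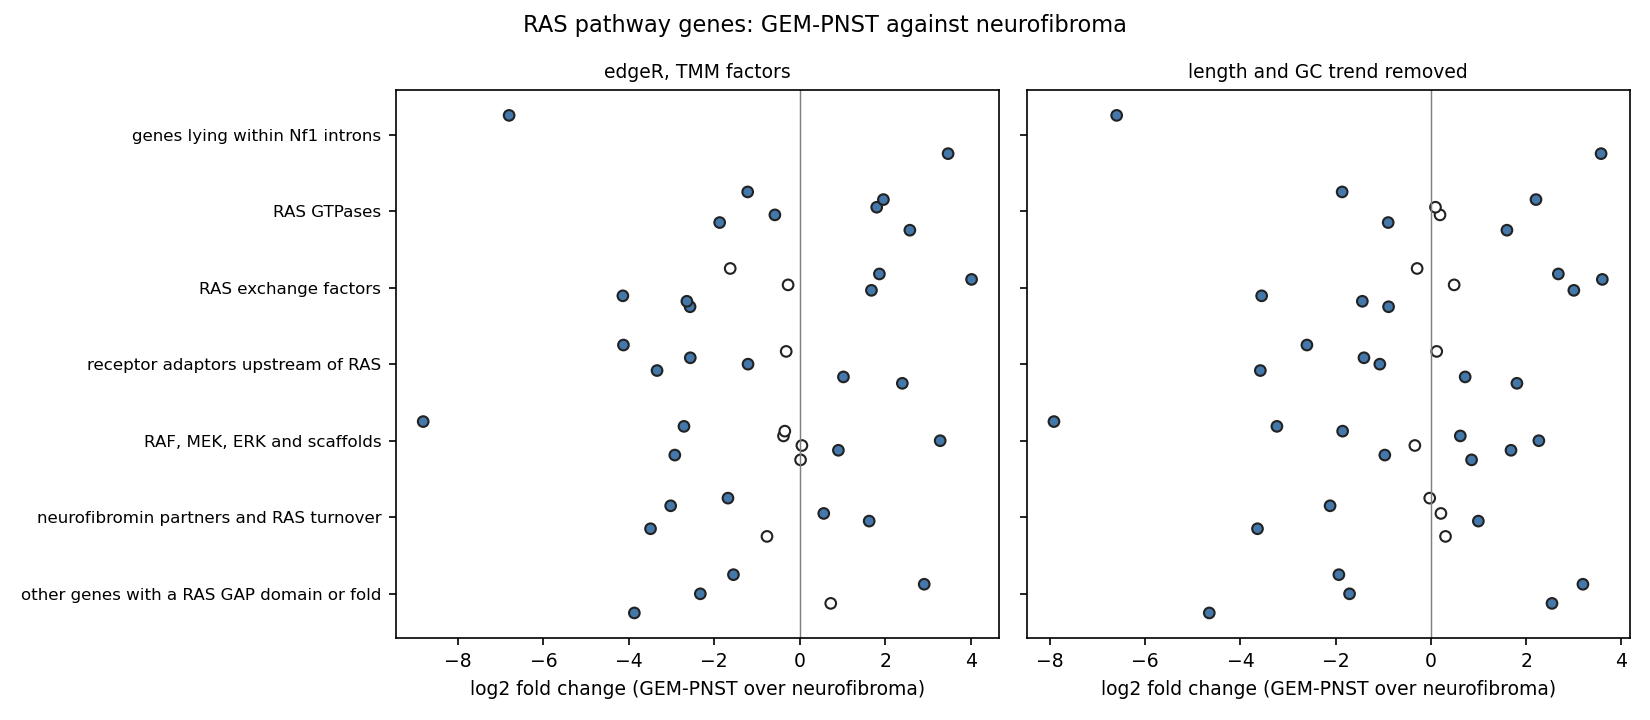
Log2 fold change of GEM-PNST over neurofibroma (horizontal axis) for the genes of 6 RAS pathway lists and the 2 tested genes within Nf1 introns (rows), with TMM factors (left) and with the length and GC trend removed (right). Each point is 1 gene, filled where the adjusted p is under 0.05. Every list has filled points on both sides of 0, and the point farthest left in the row of RAF, MEK, ERK and scaffolds, Ksr2, rests on 1 count in GEM-PNST.

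The genes whose pattern over the 20 libraries was most like that of Nf1 were Zfp605, Scaper, Acvr2a, Tnrc6b and 9930021J03Rik. Their centred log2 CPM lay at root mean square distances of 0.19, 0.23, 0.23, 0.25 and 0.25 from that of Nf1, against a median of 1.65 over the 10501 genes compared. The nearest to Rasal2 were Hecw2 (0.28) and Utrn (0.32), to Rasa1 Tpp2 (0.23) and Whsc1l1 (0.23), and to Rasa2 Zfp84 (0.23) and Top2b (0.26). Those nearest to Rasa3 were Plxnb2 (0.31) and Zkscan17 (0.33), to Rasa4 Slc25a45 (0.25) and Ccdc134 (0.28), and to Dab2ip Rab11fip3 (0.27) and Nuak1 (0.31). Rasal3 and Rasal1 had no gene as near: Plcb2 (0.51) and Arhgap25 (0.52) came closest to Rasal3, and Pltp (0.73) and Slc25a45 (0.77) to Rasal1. None of the 9 was among the nearest genes of another. The libraries share runs and depth, which enter these distances.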

How the data were processed

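Per the labels' protocols, RNA of mouse nerve tumors came from RNeasy Plus Micro columns and libraries from the Nextera XT kit. The authors deposited raw counts of reads per gene, and the build mm10 with the tools TopHat, HISAT2 and featureCounts stand in the submitters' processing notes. Versions, annotation and strand setting are not given in the sources used here. All 20 columns hold whole numbers and all were used. No pair of the 78 within-stage pairs of libraries agreed within sampling noise (the lowest ratio of chi-square to degrees of freedom was 23.0).

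Computed here were TMM factors, CPM and edgeR 4.0.16 quasi-likelihood F tests in R 4.3.3, on genes kept by the default expression filter over the 3 stages, with only the compared stages in a fit. The subgroup fit also held GEM-PNST libraries, to share their spread. Standard errors come from fold change and F value, and a prior count of 2 goes into log2 CPM. Alternatives used DESeq2 1.42.0, limma 3.58.1 (voom with sample weights), RLE factors, other filters, all 20 libraries in 1 fit, single runs or subgroups, left-out libraries, the replicate number as a block, and natural splines with 4 degrees of freedom over log2 exon length and GC content. Length and GC content come from GENCODE on GRCm38, which matched 94.6% of symbols and 95% of tested genes. Chosen after seeing the data were the trend removed at the overall scale and a filter over the 4 groups. Deviations of libraries with the same number from their group means had correlations of -0.26 to 0.17, which cannot exclude a pairing of samples. The floor for 0 is 3 counts over a group, and intervals and floors cover counting error only. Depth ranged from 9900759 to 24314222 counts. The tests were also run on simulated counts that held no length or GC trend, with the outcome not reported here.

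Named were all 9 genes, up to 3 called genes with the largest change per pathway list, all genes within Nf1 introns, and the genes nearest in pattern (5 for Nf1, 2 for the others, at a mean log2 CPM of at least 3). Some genes that this rule names are not reported here. The members and lists were chosen with earlier results of these data known. Markers of macrophages, endothelial cells, fibroblasts, epithelium with salivary gland, and skeletal muscle were also summed: in GEM-PNST, paraspinal and neurofibroma libraries the medians were 1498, 610 and 202 CPM, 152, 212 and 173 CPM, 4632, 7912 and 5036 CPM, 336, 66.3 and 220 CPM, and 165, 226 and 105 CPM.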

Additional observations from a re-analysis of the deposited data

Results flagged for a closer look

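Rasal3 had 3.54 CPM in paraspinal subgroup 1 library 2, against 7.52, 8.16 and 8.09 CPM in the other 3 paraspinal libraries. Its gap to the nearest of them was 0.862 of the range of the group, above Dixon's critical value for 4 samples. It was the only 1 of 18 groups of 4 libraries (9 genes in GEM-PNST and in paraspinal tumors) to do so, and chance gives about 1 in 20. In the same library the pan-leukocyte and macrophage marker sums were also the lowest of the paraspinal libraries, at 156 and 178 CPM, and their part in this value was not tested.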

How the results depend on the processing

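The number of RAS GAP genes called between GEM-PNST and paraspinal tumors was 1 and depended on the fit: 3 with DESeq2 (beside 4711 of all genes), 4 with all libraries in 1 fit (7107), 5 with the length and GC trend removed without setting the scale (4686), 2 against subgroup 1 alone (1294), 0 against subgroup 2 alone (89) and 1 to 2 with a library left out (2 without GEM-PNST library 2). Nf1 passed there with DESeq2 (-1.38, adjusted p = 0.00528), with all libraries in 1 fit (-1.15, adjusted p = 1.04e-05) and against subgroup 1 alone (-1.76), and reversed to 0.056 with the trend removed and no scale set. It ran from -1.47 to -1.06 with a library left out, with adjusted p over all these alternatives from 1.04e-05 to 0.911. Between subgroups 2 and 1, DESeq2 called 2 members (Nf1 -1.26) beside 1212 of all genes, limma-voom 4 (Nf1 -1.22) beside 5410 and all libraries in 1 fit 2 (Nf1 -1.22) beside 1255, where edgeR called 0 of each.

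The numbers of the libraries showed no clear pairing, which does not exclude one. As a replicate block they gave 0 members called for GEM-PNST over paraspinal, 2 for paraspinal over neurofibroma (Nf1 -1.85, adjusted p = 0.0501) and 5 for GEM-PNST over neurofibroma. Over all genes the 3 stage comparisons called 1807, 9876 and 12156 genes, and 957, 2947 and 7419 with the block. For GEM-PNST over paraspinal the count with a library left out ran from 540 to 2497, and limma-voom called 2858.

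Removing the trend without setting the scale moved the median of all genes from 0.04 to 0.55 for GEM-PNST over paraspinal and from -0.12 to 0.56 for GEM-PNST over neurofibroma. RLE factors moved it to -0.29 for GEM-PNST and -0.18 for paraspinal over neurofibroma. The filter over the 4 groups kept 17258 genes and called 1, 6, 8 and 0 members, as the main filter did.

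Of 656 values of members other than Nf1, 588 kept direction and side of the threshold, 21 lost their call, 24 gained one and 23 reversed. GEM-PNST over paraspinal reversed for Rasa1 with the block (-0.25), without GEM-PNST library 4 (-0.036, with a highest value of 0.36 without library 1) and against subgroup 1 alone (-0.16), and for Rasa2 with the trend removed (0.90, or 0.40 at the set scale) and against subgroup 2 alone (0.034). Paraspinal over neurofibroma reversed with the trend removed for Rasa2 (0.96 or 0.79), Rasal1 (-0.44 or -0.60) and Dab2ip (-0.59 or -0.76), for Rasal3 with the block (0.34) and for Dab2ip with subgroup 2 alone (-0.23). GEM-PNST over neurofibroma reversed for Rasa1 (0.56, not at the set scale) and Rasa2 (1.87 or 1.19). Subgroup 2 over subgroup 1 reversed for Rasa2 (0.34 or 0.29) and Rasa3 (0.12 or 0.073), and without subgroup 1 library 2 for Rasal1 (-0.11) and Rasal3 (-0.045), against 2.09 and 1.15 without subgroup 1 library 1. The cause of these changes was not tested.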
